A study of Homo sapiens with 4 samples.

Results

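The 10 genes described here include the ID genes ID1, ID2, ID3 and ID4. The others are BAMBI, SMAD6, SMAD7, SKIL and TGIF1, feedback regulators of TGF-beta and BMP signalling, and SMAD3, a transducer of TGF-beta and activin signals. The 10 genes were taken by name from the 18418 genes with a transcript cluster annotated to exactly 1 symbol, and all 10 were measured. A transcript cluster is a set of array probes covering 1 transcript locus. The arrays, Affymetrix Human Gene 1.0 ST, carried RNA of AGS cells, an established human gastric carcinoma line, in 2 groups of 2 biological replicates. The tested cells were given 0.01% ornithogalum, a homeopathic formulation, for 36 h, and the control cells were given its ethanol vehicle for 36 h. The cells of both groups were grown in the same medium with serum. All values are the deposited log2 expression values, on which a difference of 1 is a doubling.

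TGF-beta and activin ligands bind receptor kinases that phosphorylate SMAD2 and SMAD3, and BMP ligands bind receptors that phosphorylate SMAD1, SMAD5 and SMAD9. Both sets of SMADs join SMAD4 in the nucleus, where the BMP branch turns on the ID genes and both branches turn on their own brakes. ID proteins carry a helix-loop-helix domain but no DNA-binding region, so they hold E proteins and related factors off DNA and favour proliferation over differentiation in many epithelia.

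Groups were compared with limma's moderated test over 21214 named clusters, and a gene was called higher or lower at a Benjamini-Hochberg adjusted p under 0.05. Over all of them 4076 were called, 1393 higher and 2683 lower in ornithogalum-treated cells. The split between higher and lower depended on scaling: with every array set to the same median, 2238 were higher and 1898 lower, and the median difference over clusters was 0.20, against 0.04 as deposited. The pooled SD between replicates was 0.258 for ornithogalum and 0.140 for vehicle. Of 9 measured epithelial markers, 2 were called, both lower, and the other 7 were not. The keratin gene KRT19 stood at 6.54 and 6.70 in treated cells, against 8.07 and 7.96 in vehicle cells (2.63-fold lower, limma adjusted p = 0.00437), and the claudin gene CLDN7 was 1.69-fold lower (adjusted p = 0.0214). KRT8, another keratin gene, was at 10.37 and 10.38 in treated cells, against 10.44 and 10.59 in vehicle cells, and was not called. What part these markers have in the other results was not tested. PTPRC, which defines leukocytes, stood at 1.74 and 1.44 in treated cells, against 1.45 and 1.58 in vehicle cells. Of 22 measured markers of fibroblasts, leukocytes and endothelium, CD68 was called (higher) and the other 21 were not. LYZ, lysozyme, which gastric epithelium also makes, was the brightest of them, at 11.70 and 11.73 in treated cells, against 11.75 and 11.76 in vehicle cells.

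ID1, ID3 and BAMBI were lower in ornithogalum-treated cells, SMAD3 and SMAD7 were higher, and ID2, ID4, SMAD6, SKIL and TGIF1 did not pass the test. The call thus fell on 5 of 10 genes, where 19.2% of all named clusters were called. By direction, 3 were lower against a background of 12.6% and 2 were higher against 6.57%. Calls were more frequent among brighter clusters, at 33.1% for those with a mean log2 value of at least 5 (12.5% higher and 20.6% lower). Of the 10 genes, 8 lie in that range, with 1 higher and 3 lower, so the higher count there is near the background share. The groups did not overlap for any of the 10 genes, where 62.2% of clusters did not overlap. The groups stood apart by at least 1.5-fold for 3 genes downward, ID1, ID3 and BAMBI (background 8.73%), and for 1 gene upward, SMAD3 (background 3.92%). The median difference over the 10 genes was 0.07, since the large falls and the rises lie on either side of it, and over all named clusters it was 0.04. The 10 genes were chosen by name, with earlier results of these data known. These counts are therefore a description, and no test of the list was made.

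**Figure D1:**
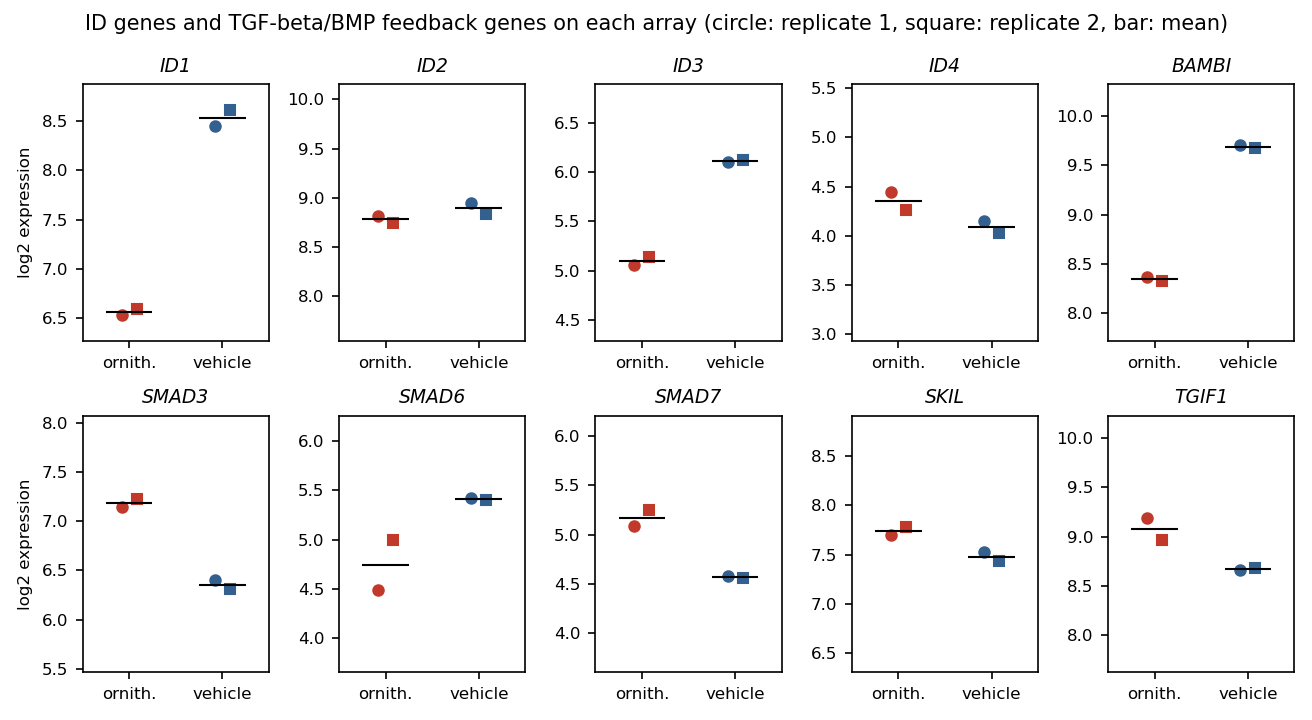
Log2 expression of each of the 10 genes (y axis, every panel spanning the same height in log2 units) on the 2 ornithogalum arrays (red, left) and the 2 vehicle arrays (blue, right), with circles for replicate 1, squares for replicate 2 and bars for the group means. ID1, ID3 and BAMBI sit well below vehicle on both ornithogalum arrays, SMAD3 and SMAD7 sit above it, and the SMAD6 values of the ornithogalum arrays, 4.49 and 4.99, are spread widely.

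ID1, which encodes a helix-loop-helix inhibitor and is a classic direct BMP target, had the largest difference of the 10. It read 6.53 and 6.59 on the ornithogalum arrays, against 8.45 and 8.61 on the vehicle arrays. Both treated values lie far below both vehicle values, and the space between the groups is 3.63-fold. The group means were 6.56 ± 0.046 for ornithogalum and 8.53 ± 0.11 for vehicle (SD, n = 2 each). The log2 difference was -1.97 (SE 0.12, 95% interval -2.28 to -1.66), a 3.92-fold fall, with a limma adjusted p = 0.00336. Among all 21214 named clusters this difference ranked 145 by size.

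ID3, a close relative of ID1 with the same mode of action, also fell. Its values were 5.06 and 5.14 on the ornithogalum arrays, against 6.11 and 6.12 on the vehicle arrays. The replicates of each group nearly coincide and the groups are apart by 1.95-fold. Mean log2 expression was 5.10 ± 0.060 with ornithogalum and 6.11 ± 0.0086 with vehicle (SD, n = 2 each), a log2 difference of -1.01 (SE 0.11, 95% interval -1.30 to -0.72) or a 2.02-fold fall, with a limma adjusted p = 0.00618. The intervals of ID1 and ID3 do not overlap, and whether the 2 falls differ was not tested.

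ID2, which is also a BMP target and whose protein binds the retinoblastoma protein, stayed close to its vehicle level. It measured 8.82 and 8.75 on the ornithogalum arrays, against 8.95 and 8.84 on the vehicle arrays. The groups were separated by a margin of 0.02 in log2 units, narrower than the distance between the replicates of either group. Its log2 difference was -0.11 (SE 0.12, 95% interval -0.41 to 0.19; limma adjusted p = 0.56), which leaves room for a modest change in either direction. After median centring the sign turned, to 0.051.

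ID4, the ID gene most prominent in neural tissue, had values of 4.44 and 4.26 on the ornithogalum arrays, against 4.15 and 4.03 on the vehicle arrays. Both treated values are above both vehicle values, by a margin of 0.11 in log2 units that is smaller than the replicate distance. The log2 difference was 0.26 (SE 0.13, 95% interval -0.06 to 0.59), with a limma adjusted p = 0.22. The vehicle mean of ID4 exceeded that of 38.1% of named clusters, so its signal is dim, and no detection calls were used. The 4 ID genes therefore did not move together: 2 fell and the intervals of the other 2 include 0.

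The promoters of ID1 and ID3, which fell, are shown with that of ID2, which was not called, and with those of BAMBI and SMAD3, the gene with the second largest fall and the gene with the largest rise among the 10. Each is RefSeq's window on GRCh38.p14, 250 bases before to 50 after the annotated start, written 5′ to 3′ on the gene's strand (for SMAD3, the outermost of 5 annotated windows). All 10 genes matched a window by symbol. Capitals mark matches on either strand to CAGAC (a SMAD-binding element), GGCGCC (a GC-rich SMAD motif), TGACG (the repeated core of a cyclic AMP response element) or CAGCTG (an E-box, the kind of site E proteins bind).
ID1 promoter, chr20:31605039-31605338, plus strand: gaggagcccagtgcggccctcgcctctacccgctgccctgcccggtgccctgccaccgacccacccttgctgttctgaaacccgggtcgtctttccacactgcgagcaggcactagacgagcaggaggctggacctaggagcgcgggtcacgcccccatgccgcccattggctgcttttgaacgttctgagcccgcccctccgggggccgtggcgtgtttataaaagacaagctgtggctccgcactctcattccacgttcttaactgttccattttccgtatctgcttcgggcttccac
ID3 promoter, chr1:23559452-23559751, minus strand: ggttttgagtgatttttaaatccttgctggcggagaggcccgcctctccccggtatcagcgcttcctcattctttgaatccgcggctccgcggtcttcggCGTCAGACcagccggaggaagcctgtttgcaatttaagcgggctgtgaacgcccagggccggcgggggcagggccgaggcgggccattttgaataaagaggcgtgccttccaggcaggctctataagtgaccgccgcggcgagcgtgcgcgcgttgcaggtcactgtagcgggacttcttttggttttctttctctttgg
ID2 promoter, chr2:8681806-8682105, plus strand: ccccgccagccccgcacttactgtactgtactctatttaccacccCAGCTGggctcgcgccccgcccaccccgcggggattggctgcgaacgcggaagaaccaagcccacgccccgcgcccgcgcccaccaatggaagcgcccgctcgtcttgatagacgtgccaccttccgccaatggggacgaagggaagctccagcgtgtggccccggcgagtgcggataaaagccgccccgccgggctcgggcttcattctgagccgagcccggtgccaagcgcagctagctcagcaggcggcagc
BAMBI promoter, chr10:28677271-28677570, plus strand: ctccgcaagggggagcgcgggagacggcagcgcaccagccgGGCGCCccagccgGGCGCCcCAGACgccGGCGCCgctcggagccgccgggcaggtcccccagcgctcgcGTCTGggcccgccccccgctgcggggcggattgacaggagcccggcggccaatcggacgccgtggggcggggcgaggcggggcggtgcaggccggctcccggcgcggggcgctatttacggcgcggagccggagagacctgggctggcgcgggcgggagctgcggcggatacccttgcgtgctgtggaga
SMAD3 promoter, chr15:67065352-67065651, plus strand: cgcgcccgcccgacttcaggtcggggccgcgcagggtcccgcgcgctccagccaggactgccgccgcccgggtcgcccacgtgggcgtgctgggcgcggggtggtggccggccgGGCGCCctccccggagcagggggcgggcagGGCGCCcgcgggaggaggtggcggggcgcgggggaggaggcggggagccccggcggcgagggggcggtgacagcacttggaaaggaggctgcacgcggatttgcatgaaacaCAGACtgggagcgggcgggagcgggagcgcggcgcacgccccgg

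These windows differ in the letters they hold. BAMBI has 2 CAGAC and 3 GGCGCC matches between 209 and 140 bases before its start, and SMAD3 has 1 CAGAC and 2 GGCGCC matches. ID3 has 1 CAGAC match, which overlaps its single TGACG match (read on the other strand), and ID2 has 1 CAGCTG match. ID1 holds none of the 4 motifs in this window, which says nothing of elements farther from the start. Among all 35116 windows of the table, 45.3% hold CAGAC, 19.2% hold GGCGCC, 24.6% hold TGACG and 17.9% hold CAGCTG. The BAMBI window is 80.0% G or C and the SMAD3 window 80.3%, against a median of 58.7% over all windows. The matches describe sequence and not binding.

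BAMBI encodes a transmembrane pseudoreceptor that lacks the kinase domain and blunts TGF-beta and BMP signalling at the membrane, and its gene is itself induced by the pathway. It read 8.37 and 8.33 on the ornithogalum arrays, against 9.71 and 9.67 on the vehicle arrays. The replicates agree to within 0.05 log2 units and the groups are 2.46-fold apart. The means were 8.35 ± 0.030 for ornithogalum and 9.69 ± 0.027 for vehicle (SD, n = 2 each). The log2 difference of -1.34 (SE 0.11, 95% interval -1.62 to -1.06) is a 2.53-fold fall, with a limma adjusted p = 0.00383. In bulk RNA of this kind, fewer cells expressing a gene and less RNA per cell cannot be told apart.

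Of the SMAD genes in the set, SMAD3, which encodes the TGF-beta and activin signal transducer, rose. Its values were 7.15 and 7.22 on the ornithogalum arrays, against 6.399 and 6.31 on the vehicle arrays. Every treated value exceeds every vehicle value by at least 1.68-fold. The means were 7.18 ± 0.051 and 6.36 ± 0.061 (SD, n = 2 each) in ornithogalum-treated and vehicle cells. The log2 difference was 0.83 (SE 0.11, 95% interval 0.54 to 1.12), a 1.78-fold rise, with a limma adjusted p = 0.0106.

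SMAD7, an inhibitory SMAD that binds activated receptors and recruits ubiquitin ligases to them, rose as well. It read 5.08 and 5.25 on the ornithogalum arrays, against 4.58 and 4.56 on the vehicle arrays. The groups are 1.42-fold apart, and the ornithogalum pair is more spread than the vehicle pair. With means of 5.17 ± 0.12 for ornithogalum and 4.57 ± 0.016 for vehicle (SD, n = 2 each), the log2 difference was 0.60 (SE 0.12, 95% interval 0.29 to 0.91) or 1.51-fold, with a limma adjusted p = 0.0294. The call was lost with the replicate number as a block (adjusted p = 0.0558) and when every cluster of the table was tested (adjusted p = 0.0733).

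SMAD6, the inhibitory SMAD that acts mainly on the BMP branch and is a BMP target, had lower values that did not pass. They were 4.49 and 4.99 on the ornithogalum arrays, against 5.42 and 5.41 on the vehicle arrays. Both treated values lie under the vehicle pair, but they differ from each other by more than the 0.41 log2 units that separate the groups. The means were 4.74 ± 0.35 and 5.41 ± 0.0077 (SD, n = 2 each) in ornithogalum-treated and vehicle cells, a log2 difference of -0.67 (SE 0.19, 95% interval -1.16 to -0.18) with a limma adjusted p = 0.0731. Without ornithogalum replicate 2, which leaves 1 array in that group, the difference was -0.92. On all 4 arrays SMAD6 passed with an intensity trend (limma adjusted p = 0.0411), where 24.4% of all named clusters were called. It also passed with array weights (adjusted p = 0.0467), where 19.2% were called. SMAD6 and SMAD3 are adjacent protein-coding genes on chromosome 15, and their differences had opposite signs.

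SKIL and TGIF1 encode nuclear corepressors that bind SMAD complexes and silence their targets, and neither passed the test. SKIL measured 7.70 and 7.78 on the ornithogalum arrays, against 7.53 and 7.43 on the vehicle arrays. For TGIF1 the ornithogalum arrays gave 9.19 and 8.96, against 8.66 and 8.68 on the vehicle arrays. In both genes the treated pair sits above the vehicle pair. The log2 difference of SKIL was 0.26 (SE 0.12, 95% interval -0.04 to 0.55; limma adjusted p = 0.19), and that of TGIF1 was 0.40 (SE 0.13, 95% interval 0.07 to 0.73; limma adjusted p = 0.0975). TGIF1 has 5 clusters with this symbol alone, and all 5 were above vehicle, by 0.30 to 0.43, with adjusted p from 0.0727 to 0.17. Of these, 4 gave nearly the same values, and whether they share probes was not checked, so they are not separate evidence. Without ornithogalum replicate 2, which leaves 1 array in that group, the TGIF1 difference was 0.51. TGIF1 passed with an intensity trend (limma adjusted p = 0.0194), where 24.4% of all named clusters were called.

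**Figure D2:**
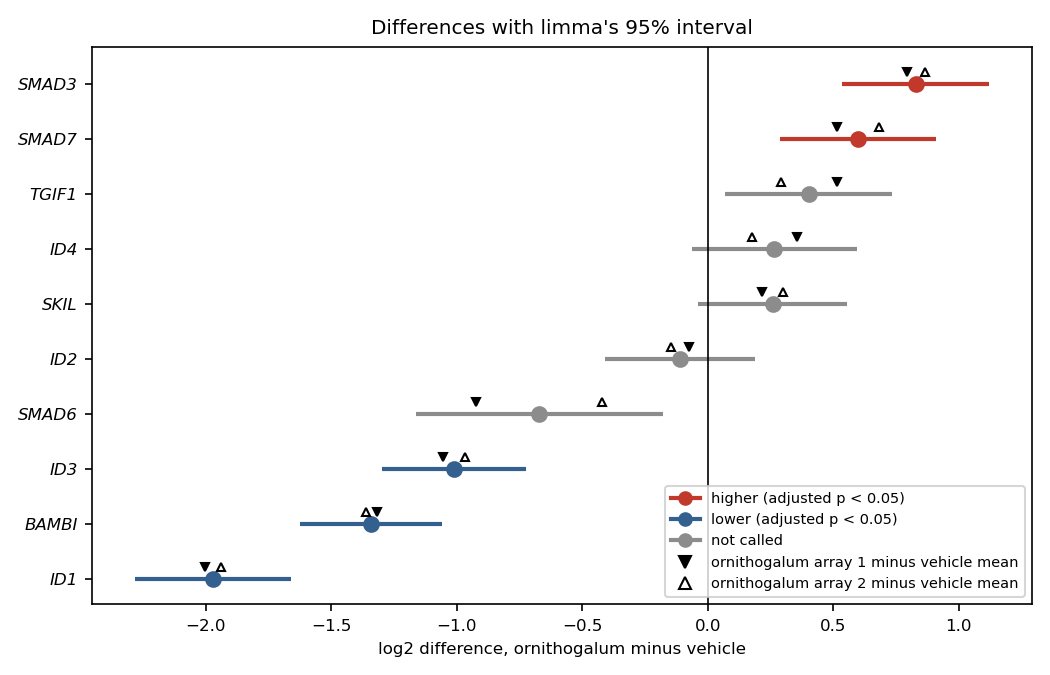
Log2 difference between ornithogalum and vehicle (x axis) for each of the 10 genes, ordered by size, as circles with limma's 95% interval, coloured by the call, and with triangles for each ornithogalum array minus the vehicle mean. ID1 at -1.97, BAMBI at -1.34 and ID3 at -1.01 stand to the left, SMAD3 at 0.83 and SMAD7 at 0.60 to the right, and the array triangles of SMAD6 lie farthest apart.

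The 4 changes of smallest p were close in size on the 2 treated arrays. Limma's p is smaller where replicates agree, so this closeness is partly built into the choice of genes. Relative to the vehicle mean, ID1 was at -2.003 and -1.94, BAMBI at -1.32 and -1.36, ID3 at -1.05 and -0.97, and SMAD3 at 0.79 and 0.86. Both arrays are set against the same vehicle mean, so they are not independent of it. For SMAD6 the same comparison gave -0.92 and -0.42. Without either vehicle array limma called none of the 10 genes, and none of the 21214 clusters, although 4192 and 3986 had an unadjusted p under 0.05. In those fits ID1 remained at -2.05 and -1.89 (adjusted p = 0.0605 and 0.0612), and BAMBI at -1.32 and -1.36 (adjusted p = 0.0655 and 0.0643). The spread between replicates in those fits comes from the ornithogalum pair alone, with a pooled SD of 0.258, against 0.140 for vehicle. The loss of every call is therefore not particular to these genes. The differences of ID1 and BAMBI moved little, as they must where the 2 vehicle arrays agree.

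**Figure D3:**
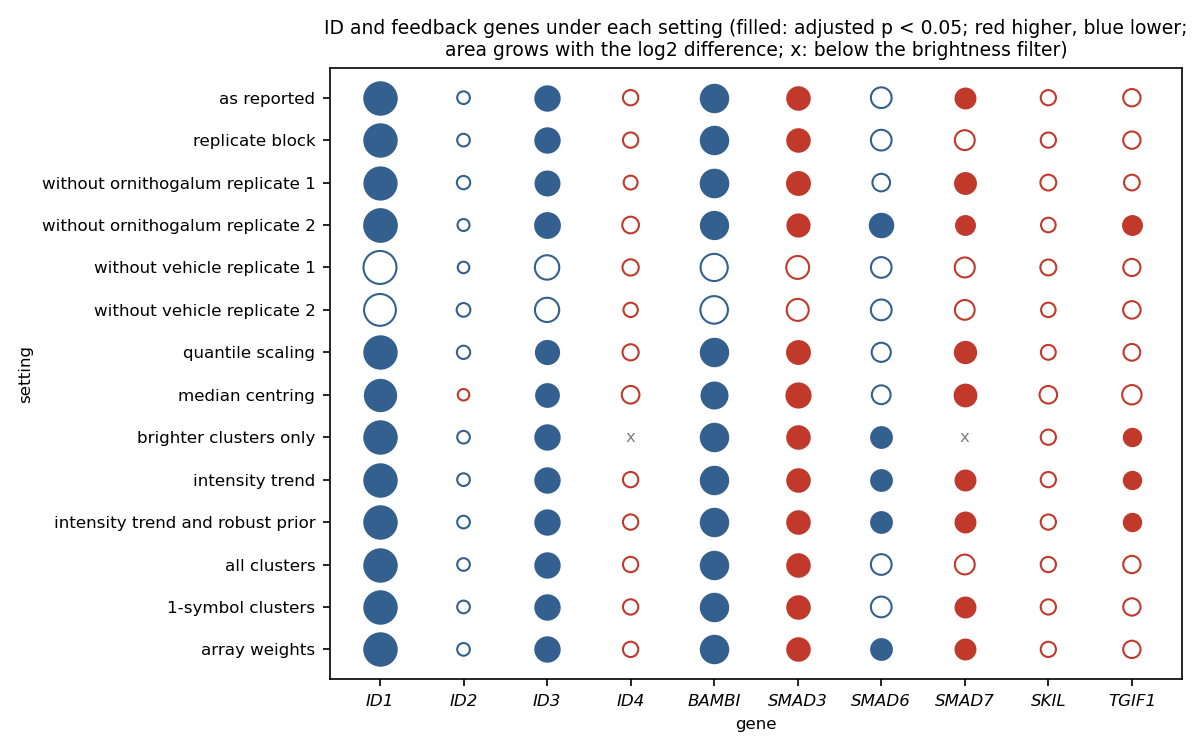
Each of the 10 genes (x axis) under the reported fit and 13 alternative settings (y axis), with red circles for higher and blue for lower in ornithogalum-treated cells, area growing with the log2 difference, and filling for an adjusted p under 0.05. ID1, ID3, BAMBI and SMAD3 are filled in every setting but the 2 that leave out a vehicle array, and SMAD6, SMAD7 and TGIF1 change with the setting.

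The rest of the pathway was read from 125 measured genes in 8 lists by role, out of 131 listed. The lists were also chosen with earlier results of these data known. Their shares therefore describe the lists, and no test of them was made. Limma called 21 of them higher (16.8%) and 10 lower (8.0%), and their median difference was 0.12, against 0.04 over all named clusters. Among the 55 with a mean log2 value of at least 5, 17 were higher and 7 lower, where 12.5% and 20.6% of all clusters that bright were called higher and lower. After median centring the counts over the 125 were 24 higher and 6 lower.

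Among the ligands, BMP4 fell and BMP8B rose, and the other 14 measured BMP and GDF genes did not pass. BMP4, a ligand of the BMP branch that patterns the gut, read 3.57 and 4.09 on the ornithogalum arrays, against 5.29 and 5.34 on the vehicle arrays. The treated pair is spread but lies wholly below the vehicle pair. Its log2 difference was -1.48 (SE 0.20, 2.79-fold lower, limma adjusted p = 0.00928). BMP8B, another BMP ligand, read 5.35 and 5.18 on the ornithogalum arrays, against 4.64 and 4.65 on the vehicle arrays, 1.54-fold higher (adjusted p = 0.0265), and the call was lost when every cluster of the table was tested (adjusted p = 0.068). Of 15 measured TGF-beta, activin and Nodal ligands, TGFB3 was lower (1.56-fold, adjusted p = 0.0229), a call lost after median centring (adjusted p = 0.0724) and with every cluster tested (adjusted p = 0.0607), and the other 14 did not pass. TGFB1, the main TGF-beta ligand of epithelia, stood at 6.42 and 6.64 with ornithogalum, against 6.30 and 6.41 with vehicle.

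Type II receptors are kinases that phosphorylate and activate the type I receptors within the ligand-bound complex. Of 5 measured type II receptor genes, BMPR2 and TGFBR2 were lower, ACVR2A was higher, and ACVR2B and AMHR2 were not called. BMPR2, the type II receptor for BMPs, read 8.56 and 8.61 on the ornithogalum arrays, against 10.00 and 10.08 on the vehicle arrays. The pairs are tight and far apart, and the log2 difference was -1.45 (SE 0.11, 2.73-fold lower, limma adjusted p = 0.0036). TGFBR2, the type II receptor for TGF-beta, read 7.24 and 7.199 on the ornithogalum arrays, against 8.25 and 8.19 on the vehicle arrays, a difference of -1.004 (SE 0.11, 2.01-fold lower, adjusted p = 0.00616). ACVR2A, a type II receptor for activins and some BMPs, was higher, with 6.08 and 6.34 on the ornithogalum arrays, against 5.50 and 5.60 on the vehicle arrays (1.58-fold, adjusted p = 0.0335). That call was lost when every cluster of the table was tested (adjusted p = 0.0813).

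The 3 called are 17.6% of the 17 measured receptors and co-receptors, and the other 14 did not pass. The type I receptor genes TGFBR1, ACVR1, ACVR1B, ACVR1C, ACVRL1 and BMPR1B had differences of 0.08, 0.10, 0.26, 0.14, 0.22 and 0.02. BMPR1A, a BMP type I receptor gene in the list, had no named cluster and was not measured. The type II receptor genes ACVR2B and AMHR2 gave -0.30 and 0.14. The co-receptor genes TGFBR3, ENG, RGMA, RGMB, HJV and CRIPTO gave -0.01, -0.10, 0.11, 0.33, 0.33 and 0.26. The vehicle means of BMPR1B and CRIPTO exceeded those of only 8.7% and 2.3% of named clusters, so their differences say little. Over these 14 the adjusted p was at least 0.16, so among the 17 measured genes the called receptors are the type II genes BMPR2, TGFBR2 and ACVR2A.

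Of the 5 other SMAD genes, SMAD1, a BMP transducer, was lower. It read 4.22 and 4.85 on the ornithogalum arrays, against 5.49 and 5.59 on the vehicle arrays. The ornithogalum replicates are spread widely and both lie below vehicle. It was 2.00-fold lower (95% interval of the log2 difference -1.59 to -0.42, limma adjusted p = 0.0408), and the call was lost when every cluster of the table was tested (adjusted p = 0.0956). SMAD5 stood at 6.52 and 6.60 with ornithogalum, against 6.87 and 6.98 with vehicle, which did not pass (-0.37, adjusted p = 0.0944). SMAD9, SMAD4 and SMAD2 had differences of 0.13, 0.10 and 0.01, none called.

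**Figure D4:**
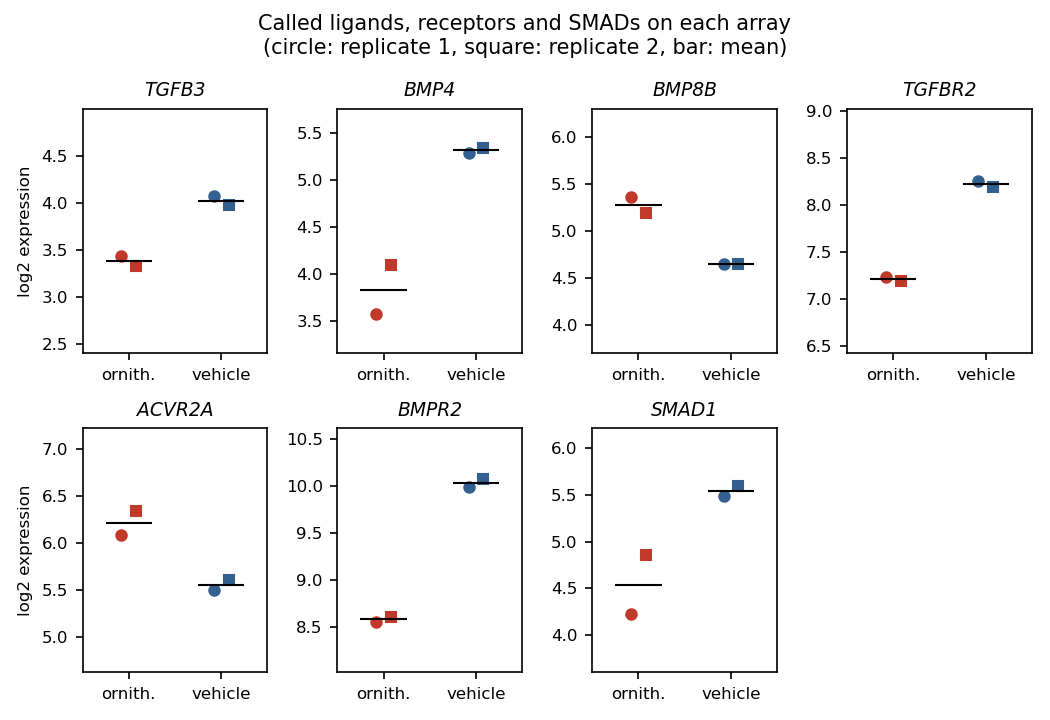
Log2 expression (y axis, every panel spanning the same height) of the 7 called ligand, receptor and SMAD genes on the 2 ornithogalum arrays (red, left) and 2 vehicle arrays (blue, right), with circles for replicate 1, squares for replicate 2 and bars for means. TGFB3, BMP4, TGFBR2, BMPR2 and SMAD1 lie below vehicle and BMP8B and ACVR2A above it, and BMP4 and SMAD1 show the widest ornithogalum pairs.

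Of 21 other intracellular regulators measured, most of them inhibitors of the pathway, limma called 8 higher (38.1%) and 3 lower (14.3%). The median difference of the list was 0.30. Over all named clusters 6.57% were higher and 12.6% lower, and among those with a mean log2 value of at least 5 it was 12.5% and 20.6%. The list is a bright one, with a median vehicle level of 6.09 in log2 units, against 4.71 over all named clusters. NEDD4L, a ubiquitin ligase that SMAD7 can bring to receptors and that degrades activated SMADs, was higher, with 7.85 and 8.004 on the ornithogalum arrays against 6.04 and 6.12 on the vehicle arrays (3.59-fold, limma adjusted p = 0.00336). PPP1R15A, which can direct a phosphatase to the type I TGF-beta receptor through SMAD7, was higher, with 9.26 and 8.95 on the ornithogalum arrays against 5.97 and 6.26 on the vehicle arrays. LEMD3, a nuclear envelope protein that binds SMADs, was 2.01-fold higher (adjusted p = 0.00946). The 8 also include USP15, a deubiquitinase known to promote TGF-beta and BMP signalling rather than inhibit it, which was 1.63-fold higher (adjusted p = 0.0145). RNF111, a ubiquitin ligase that also enhances the pathway, is in the list and was not called.

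The 3 genes of this list that were lower are a ubiquitin ligase gene and a pair of phosphatase genes. WWP1, the ligase, was 1.81-fold lower (adjusted p = 0.00895). CTDSP2 and CTDSP1, which encode phosphatases that act on SMADs, were 1.67-fold (adjusted p = 0.014) and 1.66-fold (adjusted p = 0.0304) lower, and CTDSP1 lost its call after median centring (adjusted p = 0.0848) and when every cluster was tested. Of 17 genes measured in the secreted antagonist list, 3 were called (17.6%, where 19.2% of all named clusters were called). CER1, a Nodal and BMP antagonist, was called higher (1.44-fold, limma adjusted p = 0.0475). It read 2.84 and 2.90 on the ornithogalum arrays, against 2.24 and 2.45 on the vehicle arrays. Its vehicle mean exceeded that of only 10.7% of named clusters, so its signal is dim. The CER1 call was also lost with quantile scaling (adjusted p = 0.178) and an intensity trend (adjusted p = 0.0833), and kept after median centring (adjusted p = 0.0266). The lower genes were LTBP1 and LTBP4 (1.54-fold and 1.52-fold, adjusted p = 0.0344 and 0.043). They encode latent TGF-beta binding proteins, which are not antagonists proper. These 3 calls sit close to the threshold, and each was lost when every cluster was tested and in the fit blocked by replicate number.

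**Figure D5:**
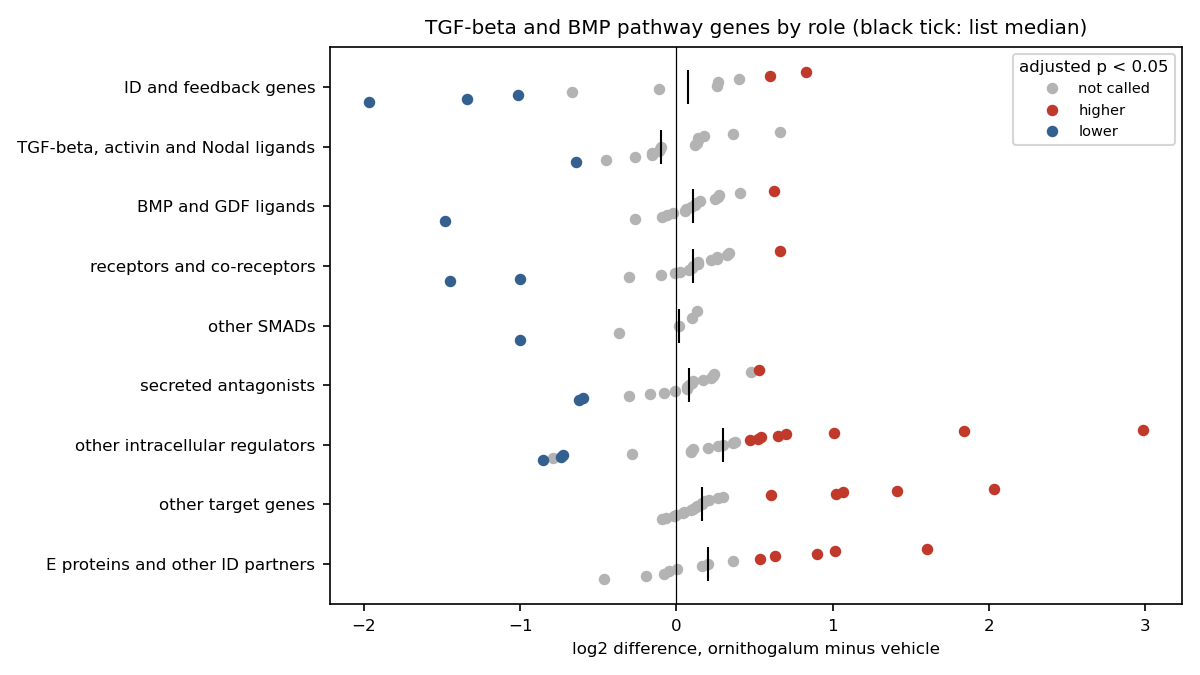
Log2 difference between ornithogalum and vehicle (x axis) for the 10 genes and for 125 other pathway genes in 8 lists by role (y axis). The row of ID and feedback genes includes SMAD3. Red marks called higher, blue called lower, grey not called, and a black tick each list's median. The lists of other target genes and of ID partners (E proteins and others) hold red and grey points without a blue one. The ligand, receptor and SMAD lists hold the blue points BMP4, BMPR2, TGFBR2, SMAD1 and TGFB3 and the red points BMP8B and ACVR2A. The intracellular regulators hold 8 red and 3 blue points, and the secreted antagonists 1 red and 2 blue.

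Of 21 other target genes measured, limma called 5 higher (23.8%) and 0 lower, the same as at an unadjusted p under 0.05, and 16 were not called. Over all named clusters 6.57% were called higher and 12.6% lower. The differences of the 21 genes ran from -0.09 to 2.03 with a median of 0.16. JUNB, an AP-1 subunit gene, GADD45B, a stress-response gene, and HMOX1, the haem oxygenase gene, were the called genes of smallest p, all 3 of which respond to many other signals. JUNB read 7.98 and 7.75 on the ornithogalum arrays against 5.81 and 5.86 on the vehicle arrays, GADD45B was 2.66-fold higher (adjusted p = 0.00554), and HMOX1 was 2.03-fold higher (adjusted p = 0.00871). Several genes that BMP induces in other cell types were not called, among them HEY1 (-0.07), ATOH8 (0.19), MSX1 (0.21) and MSX2 (-0.0040), which were picked after their values were seen.

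Partners of the ID proteins were called higher by limma in 5 of 13 measured genes and lower in 0 (6 and 1 at an unadjusted p under 0.05), with a median of 0.20. Those 5 are 38.5% of the list, where 6.57% of all named clusters were called higher and 12.6% lower, and 12.5% and 20.6% of clusters with a mean log2 value of at least 5. The median vehicle level of the list was 5.50, against 4.71 over all named clusters. TCF12, the E protein gene HEB, read 8.71 and 8.80 on the ornithogalum arrays, against 7.65 and 7.84 on the vehicle arrays (2.02-fold, limma adjusted p = 0.00827). TCF3 and TCF4, the other 2 E protein genes, had differences of -0.19 and -0.08 and were not called. HES1, a helix-loop-helix repressor in the Notch pathway, read 8.03 and 7.75 on the ornithogalum arrays, against 6.24 and 6.33 on the vehicle arrays (3.04-fold, adjusted p = 0.00433). RB1, the retinoblastoma gene, was 1.55-fold higher (adjusted p = 0.0214), a call lost when every cluster of the table was tested (adjusted p = 0.0575).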

How the data were processed

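AGS gastric carcinoma cells were profiled on 4 arrays, 2 with 0.01% ornithogalum and 2 with vehicle. The deposited table holds log2 expression values. Per the submitters' processing notes, the authors made them by RMA with Expression Console 1.1 of Affymetrix. Its settings and the genome build were not given in the sources used here. No depth applies to arrays, and their number limits the precision.

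Of 33297 clusters, 21214 have a symbol in the platform annotation and 19461 have exactly 1. Older symbols were replaced by gene number from the gene table of RefSeq (GRCh38.p14), which matched 19429. Each gene was represented by its 1-symbol cluster of highest mean. Groups were compared with limma 3.58.1 in R 4.3.3 (lmFit, eBayes without trend), two-sided, with Benjamini-Hochberg adjustment over all 21214 clusters. The fit was run on simulated arrays with known changes and the same spread in both groups. It was required to recover only the sizes and signs of the changes. That does not check the calls at the unequal spread seen here. Replicates are biological per the labels, with no word on separate cultures, so a p-value measures only how much these 4 samples vary. The genes and lists were chosen with earlier results of these data known. Of 131 pathway genes listed, 125 had a 1-symbol cluster and the other 6 were not analysed here. From each list the called genes of smallest p were named, at most 3 per direction, with all receptors and SMADs. TGFB1, TCF3, TCF4, HEY1, ATOH8, MSX1, MSX2, USP15, RNF111, KRT19, CLDN7, PTPRC and CD68 were named after their values were seen. Alternatives were the replicate block, leaving out each array, quantile scaling, median centring, brighter clusters only (mean log2 of at least 5), an intensity trend (also with a robust prior), all clusters or 1-symbol clusters only, array weights and a threshold of 0.01.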

Additional observations from a re-analysis of the deposited data

How the results depend on the processing

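Under the 13 alternative fits, ID1, ID3, BAMBI and SMAD3 kept their direction in every one and their call in 11, all but those without a vehicle array. ID2 changed sign under median centring (0.051). Without 1 array the genes called ranged from 0 to 3 higher and 0 to 4 lower, the 125 pathway genes from 0 to 25 higher and 0 to 14 lower, and all clusters from 0 to 3054 higher and 0 to 4004 lower, the zeros coming without either vehicle array and the highest counts without ornithogalum replicate 2. In those fits the lone array is assumed to vary like the other group.

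The replicate number as a block left 1 of the 10 genes higher, SMAD3, and 3 lower, with 14 pathway genes higher and 9 lower. Of all 21214 clusters, 1035 were higher and 2267 lower in that fit (15.6% called). The labels give a shared number but no shared origin, and deviations of same-numbered arrays correlated at -0.06 across clusters. Testing every cluster of the table left 1 of the 10 genes higher and 3 lower, and 10 pathway genes higher and 5 lower. Of all 33297 clusters, 967 were then higher and 1677 lower. Median centring gave 2238 clusters higher and 6 pathway genes lower. An adjusted p under 0.01 left 0 of the 10 genes higher and 3 lower in limma. Ranked by p, LEMD3 at 1404 passed it (limma adjusted p = 0.00946) and SMAD3 at 1495 did not (0.0106). At least 1404 and fewer than 1495 of the 21214 clusters therefore passed. At an unadjusted p under 0.05, 3 of the 10 genes were higher and 4 lower, where 7160 of all 21214 clusters passed. With brighter clusters only, ID4 and SMAD7 were below the filter. SMAD6 passed in 5 settings and TGIF1 in 4, and the cause was not tested. The reported fit called 19.2% of all clusters tested. Brighter clusters only called 50.9%, an intensity trend 24.4%, and the trend with a robust prior 24.1%. Array weights, with which SMAD6 passed, called 19.2%. The counts include the fit without ornithogalum replicate 2, which leaves 1 array in that group. Signal limits ID4 and SMAD7 most, as their vehicle means exceeded those of 38.1% and 47.2% of named clusters.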
